A study of Mus musculus with 23 samples.

Results

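Klf2, Klf4 and Sp1 are 3 zinc finger transcription factor genes of one superfamily, and their transcripts were followed through the conversion of A404 cells into smooth muscle-like cells. They were found as the probes annotated to these symbols, 1 for Klf2, 1 for Klf4 and 2 for Sp1, and they are 3 of the 8683 genes that the array measured with a probe of a single symbol. The genes were chosen with their values on these arrays known (Klf2 and Klf4 higher after treatment), so their levels and differences stand as description without a test. A404 is a clone of P19, a mouse line of malignant embryonic stem-like cells (embryonal carcinoma). All groups come from that 1 clone, and it is known to carry puromycin resistance under the promoter of Acta2, the gene of smooth muscle alpha-actin. Control cells (6 arrays) were undifferentiated and were harvested near confluence at the start of the experiment. RA48 (5 arrays) and RA96 (6 arrays) were cells moved at about 30% confluence to medium with 1 µmol/L all-trans-retinoic acid for 48 or 96 hours. No untreated group was held for 48 or 96 hours. Retinoic acid, time in culture and cell density therefore cannot be told apart between Control and the treated groups. Puromycin (6 arrays) received retinoic acid for 96 hours and then puromycin for 48 hours, so time and selection cannot be told apart in that group. Each of the 23 samples pooled 5 to 6 plates, and the labels do not say that replicates came from separate cultures, so errors and p-values measure the spread between these samples, which may be technical. On each 2-colour Agilent array, RNA of the cells (Cy5) was compared with RNA of a pool of whole mouse embryos of day 17.5 (Cy3). Values are log2 ratios of cells over embryo pool, so a change of 1 is a 2-fold change, and levels of different genes are not set against each other, only their changes.

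The Krueppel-like factors and the Sp factors share a DNA-binding domain of zinc fingers at the end of the protein, which reads GC-rich elements, the GC box and the CACCC box. Klf2, Klf4 and Klf5 are known as partly redundant parts of the network that keeps mouse embryonic stem cells undifferentiated, where Klf4 lies downstream of LIF and Stat3. In blood vessels Klf2 is known as a factor induced by shear stress in endothelium, and Klf4 as a factor that represses contractile genes when smooth muscle cells change phenotype and that arrests growth through Cdkn1a. Sp1 is expressed in most cells and activates GC-box promoters of housekeeping and growth genes, and Klf4 and Sp1 can compete for the same elements.

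The promoter of each of the 3 genes is shown because these factors bind GC-rich elements, which all 3 promoters hold themselves. Each run is the 250 bases before the annotated start of the gene in RefSeq, build GRCm38.p6, read 5′ to 3′ along the gene's strand, and all 3 symbols were matched. Capitals mark every match, on either strand, to 1 of 6 motifs: the GC box (GGGCGG), the CACCC box (CACCC), the retinoid receptor half-site (AGGTCA), the TATA box (TATAAA), the MEF2 site and the CArG box, the element of serum response factor.
Klf2, chr8:72318812-72319061, plus strand: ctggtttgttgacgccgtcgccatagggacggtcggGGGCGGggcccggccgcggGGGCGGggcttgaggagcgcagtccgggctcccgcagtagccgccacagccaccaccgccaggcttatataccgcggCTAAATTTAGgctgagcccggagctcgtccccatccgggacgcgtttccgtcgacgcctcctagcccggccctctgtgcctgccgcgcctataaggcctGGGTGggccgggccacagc
Klf4, chr4:55532476-55532725, minus strand: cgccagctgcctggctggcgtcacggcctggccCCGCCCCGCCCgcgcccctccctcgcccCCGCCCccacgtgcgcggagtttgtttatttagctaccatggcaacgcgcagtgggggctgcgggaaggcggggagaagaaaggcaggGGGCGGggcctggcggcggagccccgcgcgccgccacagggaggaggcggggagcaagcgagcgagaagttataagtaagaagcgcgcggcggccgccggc
Sp1, chr15:102406066-102406315, plus strand: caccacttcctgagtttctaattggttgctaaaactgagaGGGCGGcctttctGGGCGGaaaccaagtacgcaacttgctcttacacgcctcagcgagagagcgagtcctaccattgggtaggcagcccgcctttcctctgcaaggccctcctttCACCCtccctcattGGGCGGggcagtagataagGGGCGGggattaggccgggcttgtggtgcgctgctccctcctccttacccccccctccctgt

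The Klf2 promoter held 2 GC boxes, 1 CACCC box, read on the other strand, and 1 MEF2 site whose capitals read the same on both strands. GC boxes numbered 4 in the Klf4 promoter, 3 of them read on the other strand and a pair of these sharing the base between them, and none of the other motifs matched there. The Sp1 promoter held 4 GC boxes and 1 CACCC box. Of 32851 promoters of the same length 32.7% held at least 1 GC box, 16.7% at least 2 and 4.09% at least 4. The CACCC box was in 52.0% of them, the MEF2 site in 2.92%, the retinoid half-site in 14.0%, the TATA box in 12.4% and the CArG box in 1.47%. The GC content was 71.2% for Klf2, 74.0% for Klf4 and 59.6% for Sp1, against a median of 52.4%. The genes themselves lie at chr8:72319062-72321654, chr4:55527137-55532475 and chr15:102406316-102436404, and all 3 are annotated as protein-coding.

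The 23 arrays fell into sets of 11 and 12 that the labels do not name, split here by the sign of each array on the leading principal component left after group means were subtracted, which held 48.9% of the variance within groups. The first set was Control, RA48 and Puromycin replicates 1 to 3 with RA96 replicates 1 and 3, and the second was the rest, so both sets hold every group. Differences within each set are therefore given beside those over all arrays. The lowest ratio of any probe compared lay between -7.69 and -6.417 on first-set Control arrays and between -5.319 and -5.115 on second-set ones. In Puromycin it lay between -7.215 and -6.871 and between -4.567 and -4.364. Whether this bears on the differences within the sets was not tested. For Klf2, Klf4 and Sp1, RA96 replicate 2 read near the first set, so their second-set differences that involve RA96 depend on that array. Acta2, the gene that the selection is known to act on, had mean log2 ratios of -4.90, -0.34, 1.87 and 2.40 in Control, RA48, RA96 and Puromycin, higher at each later stage. Of the 17863 rows compared (genes, and probes without a single symbol), 26.0% differed between RA48 and Control by limma at a Benjamini-Hochberg adjusted p under 0.05, 19.8% between RA96 and RA48, 5.27% between Puromycin and RA96, 46.1% between RA96 and Control and 46.3% between Puromycin and Control. The median change of all rows lay between -0.09 and -0.01 in these 5 comparisons, which share groups and are not independent of each other.

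Klf2, which in embryonic stem cells acts in the pluripotency network and in vessels in the response to flow, was higher at each later stage and highest after puromycin. Its log2 ratios in Control replicates 1 to 6 were -0.81, -0.98, -1.20, -0.89, -0.75 and -1.12. In RA48 the 5 arrays gave -0.18, -0.27, -0.22, -0.45 and -0.57, all of them above every Control array. The RA96 arrays read 0.48, 0.42, 0.48, -0.22, -0.28 and -0.37, so that replicates 1 to 3 lay above all RA48 arrays and replicates 4 to 6 among them. Puromycin gave 1.44, 1.52, 1.53, 0.89, 0.72 and 0.50, above every RA96 array, though the lowest stood only 0.02 above the highest of RA96. The Klf2 transcript thus moved from below the embryo pool in Control (mean -0.96 ± 0.17, SD, n = 6) to above it in Puromycin (1.10 ± 0.45, SD, n = 6).

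Over the whole course Klf2 was higher by 2.06 ± 0.19 (SE), 4.16-fold, and 269 of the 17863 rows (1.51%) were higher by at least as much. RA48 stood above Control by 0.62 ± 0.20 (SE), 1.54-fold, with 0.77 and 0.41 in the first and second array set. Between 48 and 96 hours the difference was 0.42 ± 0.20 (SE), 1.34-fold, with 0.70 and 0.40 in the sets, and the groups overlapped. Puromycin stood above RA96 by 1.02 ± 0.19 (SE), 2.02-fold, with 1.02 and 0.82 in the sets. In that last comparison only 93 rows (0.521%) were higher by as much, while 1420 (7.95%) were at the first step. The spread within RA96 and Puromycin, SD 0.41 and 0.45, was mostly between replicates 1 to 3 and 4 to 6, whereas in Control (SD 0.17) no such gap was seen.

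Klf4, which joins the pluripotency network to the control of smooth muscle genes, had the larger difference over the course of the experiment. In Control its log2 ratios were -3.65, -3.40, -3.64, -3.05, -2.87 and -3.05, far below the embryo pool on every array. Replicates 1 to 3 all lay below replicates 4 to 6 there, the reverse of their order in RA96 and Puromycin. RA48 gave -2.59, -2.65, -2.39, -2.32 and -2.47, a narrow group (SD 0.14) that lay wholly above Control. In RA96 the arrays read -1.26, -0.98, -1.07, -1.83, -2.04 and -2.16, again with replicates 1 to 3 above replicates 4 to 6. The Puromycin arrays read -0.19, -0.19, -0.01, -0.59, -0.78 and -0.66, above all of RA96 and still at or under the level of the pool. The 4 groups therefore followed in the order of the protocol with no overlap between neighbours, the gaps being 0.22, 0.16 and 0.20.

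Klf4 was 1.73-fold higher in RA48 than in Control (0.79 ± 0.21, SE), 1.90-fold higher in RA96 than in RA48 (0.93 ± 0.21) and 2.22-fold higher in Puromycin than in RA96 (1.15 ± 0.20). From Control to Puromycin this came to 2.87 ± 0.20 (SE), 7.31-fold, which 110 rows (0.616%) matched or exceeded. At the last step only 65 rows (0.364%) were higher by as much. The groups of all arrays did not overlap, in either direction, for 18.1% of rows between RA48 and Control, 10.3% between RA96 and RA48, 4.60% between Puromycin and RA96, 26.0% between RA96 and Control and 28.3% between Puromycin and Control, and nothing is read from the members' counts since they were chosen on these contrasts. Within the first and second array set the steps were 1.02 and 0.59, then 1.38 and 0.64, then 1.03 and 1.08. The second step was thus more than 1.5 times smaller in the second set than in the first, and the last step was alike in both. Quantile normalization lowered the first step to 0.45. In bulk RNA, more cells with the transcript and more transcript per cell cannot be told apart, for Klf4 as for the other genes.

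**Figure D1:**
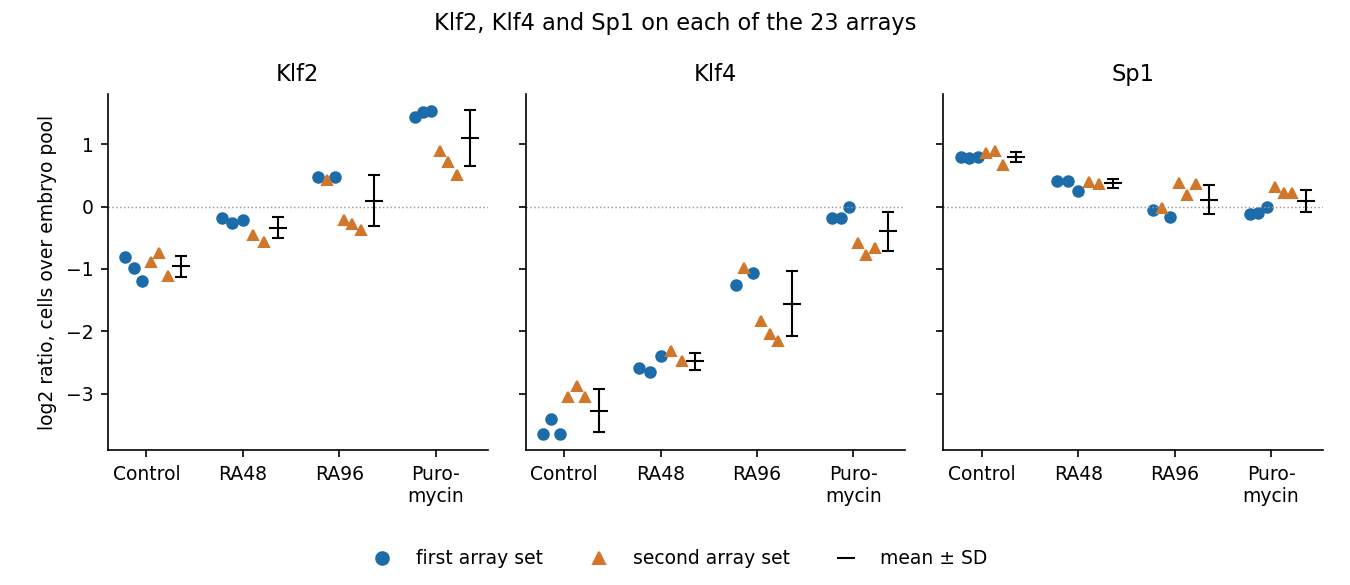
Log2 ratio of cells over embryo pool (vertical axis) for Klf2, Klf4 and Sp1 on each of the 23 arrays, by group, with circles for the first and triangles for the second array set, and the mean ± SD of all arrays of a group beside the points. Klf4 climbs from a mean of -3.27 to -0.40 and Klf2 from -0.96 to 1.10, while Sp1 goes from 0.80 to 0.09.

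**Figure D2:**
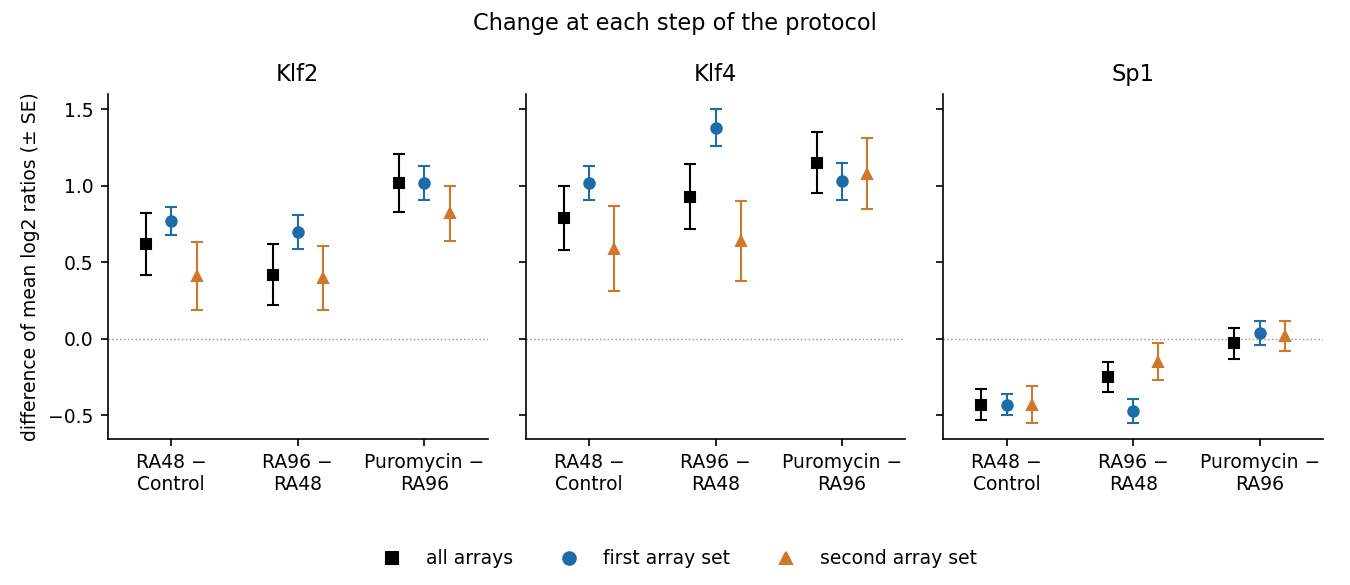
Difference of mean log2 ratios (vertical axis, bars ± SE of the fit) at each step of the protocol for Klf2, Klf4 and Sp1, over all arrays (squares) and within the first (circles) and second (triangles) array set. Klf2 and Klf4 lie above 0 at every step and in both sets, and Sp1 lies below 0 at the first 2 steps and near 0 at the last.

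Klf2 and Klf4 varied together from array to array. Over the 23 arrays, which share the embryo pool and the array sets, Pearson's r between them was 0.97. It was 0.99 with the set means removed, as 1 set difference common to all groups. It was 0.77 on deviations from group means, and 0.88 on those deviations with that common difference removed. The likeness was thus not that of the 4 group means alone. Set differences that varied by group remained, and their part in it was not tested. For Klf4, first minus second set was -0.58 in Control, -0.15 in RA48, 0.59 in RA96 and 0.54 in Puromycin. For Klf2 it was -0.08, 0.28, 0.59 and 0.79. RA96 replicate 2 belongs to the second set by its overall profile, yet its Klf2 (0.42) and Klf4 (-0.98) values lay with those of RA96 replicates 1 and 3. Klf4 gained on Klf2 along the course: the difference Klf4 minus Klf2 on the same array had means of -2.32, -2.15, -1.64 and -1.51 in Control, RA48, RA96 and Puromycin. That difference ranged from -2.83 to -1.93 in Control and from -1.71 to -1.16 in Puromycin, with no overlap between them. In the first set its mean went from -2.57 to -1.63, and in the second from -2.07 to -1.38.

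**Figure D3:**
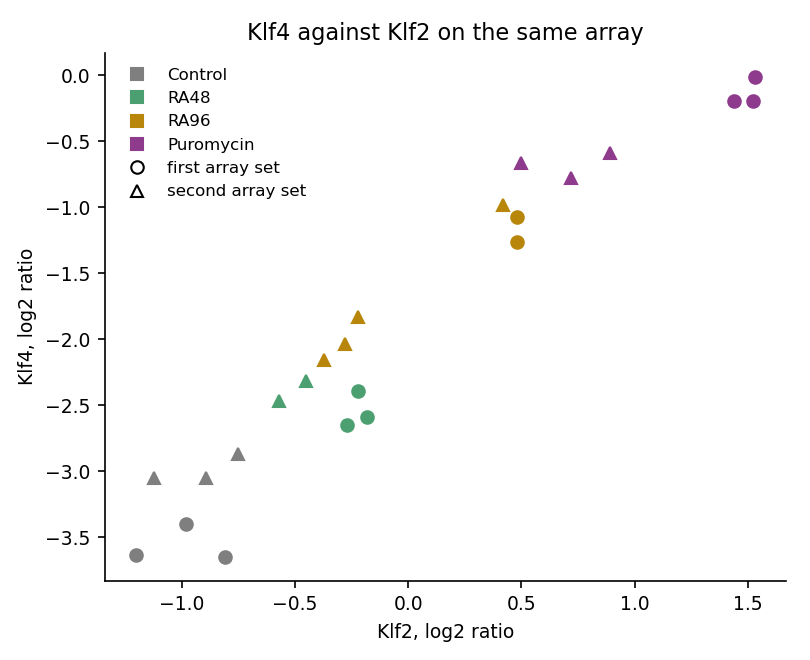
Klf4 log2 ratio (vertical axis) against Klf2 log2 ratio (horizontal axis) on the same array for all 23 arrays, coloured by group, with circles for the first and triangles for the second array set. The arrays lie along 1 rising band (r of 0.97), and in RA96 and Puromycin the points of 1 group fall into clumps along that band, RA96 replicate 2 with the upper clump of its group.

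Sp1, the widely expressed GC-box activator, ran the other way and had its lowest values from 96 hours of retinoic acid on. As the mean of both probes its log2 ratios in Control were 0.79, 0.78, 0.79, 0.86, 0.89 and 0.67. RA48 gave 0.41, 0.41, 0.25, 0.40 and 0.36, all below Control. In RA96 the values were -0.05, -0.02, -0.17, 0.37, 0.19 and 0.36, and in Puromycin -0.12, -0.10, 0.00, 0.32, 0.21 and 0.22. RA96 overlapped RA48, with 4 of its 6 arrays below all of RA48, and RA96 and Puromycin overlapped throughout. In this mean replicates 1 to 3 of RA96 and of Puromycin lay below replicates 4 to 6, and the probes differed in this. For probe 16655 the first-set mean minus the second-set mean was -0.84 in RA96 and -0.71 in Puromycin, and for probe 15635 it was 0.16 and 0.07.

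Sp1 was 1.35-fold lower in RA48 than in Control (-0.43 ± 0.10, SE), with -0.43 in each array set. The next step gave -0.25 ± 0.10 (SE), with -0.47 and -0.15 in the sets, and the last -0.03 ± 0.10, with 0.04 and 0.02 in the sets, so its direction there is not defined. From Control to Puromycin Sp1 was 1.63-fold lower (-0.71 ± 0.10, SE), with -0.86 and -0.56 in the sets. A change of this size was common, since 1589 rows (8.90%) were lower by at least as much. On single arrays Sp1 ran against Klf2 (r of -0.85) and Klf4 (-0.86). On deviations from group means it ran against both as well (-0.75 and -0.69, or -0.59 and -0.76 with the common set difference removed). Set differences that varied by group remained there too. Each r is for the mean of both probes, and the probes were not correlated singly with Klf2 or Klf4. Between the sets probe 15635 went with Klf2 in RA48, RA96 and Puromycin. Its first-set mean minus its second-set mean was 0.38, 0.16 and 0.07 there, beside 0.28, 0.59 and 0.79 for Klf2. In Control these were 0.51 and -0.08.

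The probes 15635 and 16655 for Sp1 disagreed in a way that followed the array set. Probe 15635 gave 1.29, 1.23, 1.47, 0.89, 0.90 and 0.67 in Control and 0.38, 0.27, 0.38, 0.31, 0.24 and 0.27 in Puromycin, without overlap. Probe 16655 gave 0.29, 0.33, 0.10, 0.84, 0.88 and 0.67 in Control and -0.62, -0.46, -0.37, 0.34, 0.18 and 0.17 in Puromycin, where the groups overlapped. On arrays of the first set probe 15635 exceeded probe 16655 by means of 0.83 to 1.12 per group, and on arrays of the second set by 0.02 to 0.12. The correlation of the probes over 23 arrays was 0.31, and 0.90 with the set means removed. Both probes still gave lower values in Puromycin than in Control within each set: -0.99 and -0.55 for probe 15635, and -0.73 and -0.57 for probe 16655. In Control and RA48 the offsets of the probes nearly cancelled in their mean (first minus second set of -0.02 in both groups), and the SD of 0.08 for Sp1 in Control was smaller than that of either probe (0.30 and 0.32). In RA96 and Puromycin the mean kept offsets of -0.34 and -0.32, and its SDs of 0.23 and 0.18 exceeded those of probe 15635 (0.18 and 0.06). Klf2 and Klf4 each rest on 1 probe, so no such check exists for them.

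**Figure D4:**
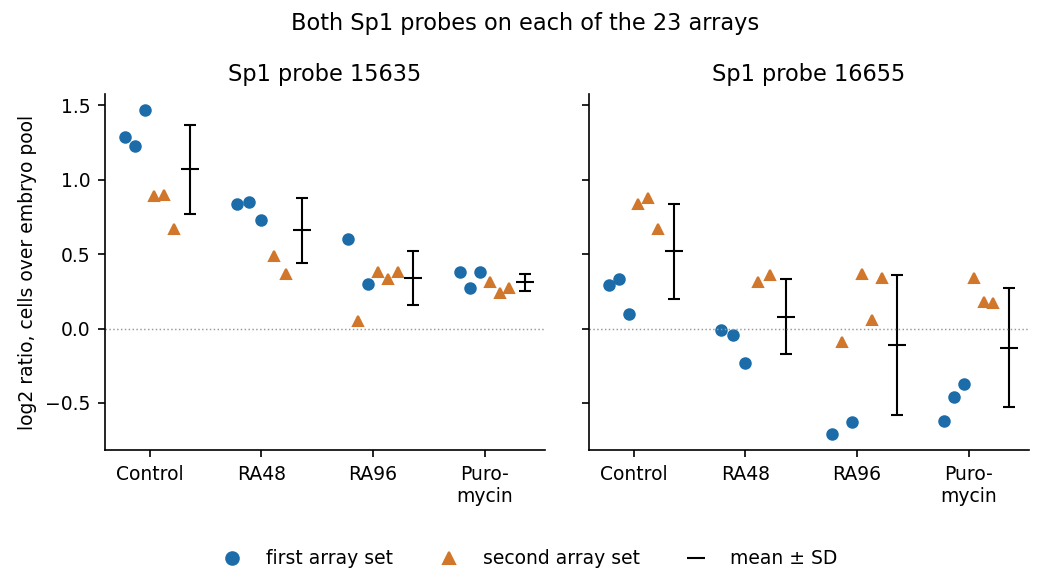
Log2 ratio of cells over embryo pool (vertical axis) for each of the probes of Sp1 on the 23 arrays, by group, with circles for the first and triangles for the second array set, and the mean ± SD beside the points. First-set arrays lie above second-set arrays for probe 15635 in Control (means of 1.33 and 0.82) and below them for probe 16655 (0.24 and 0.80), and within each set both probes are lower in Puromycin than in Control.

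Among all other measured genes with a proper symbol, those most like Klf2 over the 23 arrays were Fez2 (r of 0.98), Serpinb6a, a serine protease inhibitor, Niban2 and Klf4 itself (each 0.97). With the set means removed Klf4 ranked first for Klf2. Most opposite to Klf2 were Anp32a, Cemip2 and Fut9, a fucosyltransferase (each -0.94). For Klf4 the nearest were Serpinb6a (0.98) and Rtn4, Phldb2 and Sqstm1, an autophagy receptor (each 0.97), and the most opposite Raver2 (-0.98), Trap1, a mitochondrial chaperone, and C2cd5 (both -0.97). Sp1 was most like Prkcb, a protein kinase C, Sin3a, a corepressor scaffold, and Acy1 (each 0.97), then Odf2 (0.96), and most opposite to Anln, Krt18, a simple keratin, and Dynlt3 (each -0.95). Serpinb6a, which heads the list for Klf4 and is second for Klf2 with the sets removed, had group means of -0.35, 0.11, 0.51 and 1.27 from Control to Puromycin. These correlations describe shared profiles over 4 groups and 2 array sets and carry no p-value.

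The relatives of these genes did not move as one. Of 23 other Krueppel-like and Sp factors listed 14 were measured. Between RA48 and Control 5 of the 14 rose and 2 fell, beside 11.9% of all rows higher and 14.1% lower, and their median change was 0.06 against -0.06 for all rows. Klf3, a repressor that recruits CtBP, rose by 1.77 ± 0.10 (SE, limma adjusted p = 1.03e-11) and went from -0.74 ± 0.10 to 1.04 ± 0.15 (SD, n = 6 and 5). Klf5, which promotes growth of smooth muscle and partners Klf2 and Klf4 in stem cells, rose by 0.77 ± 0.13 (adjusted p = 9.04e-05). Klf6, an injury-induced factor, rose by 0.79 ± 0.18 (0.00201), with 1.21 and 0.42 in the array sets, and Klf7 by 0.39 ± 0.08 (0.000686). Klf9, a factor that responds to hormones, fell by 1.42 ± 0.11 (adjusted p = 9.48e-10), from 2.08 ± 0.11 to 0.66 ± 0.14 (SD, n = 6 and 5). Klf11 (0.33, adjusted p = 0.0163) and Klf16 (-0.46, adjusted p = 0.0187) also passed, but Klf11 did not without RA48 replicate 1 (adjusted p = 0.0666) or in the second array set (0.419), and Klf16 did not without RA48 replicate 5 (0.0549).

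From RA48 to RA96, 3 of the 14 rose and 2 fell, beside 10.4% of rows higher and 9.42% lower, with a median change of 0.09 against -0.02 for all rows. Klf5 rose further by 0.51 ± 0.13 (limma adjusted p = 0.00916) and Klf7 by 0.30 ± 0.08 (0.0122), while Klf3 fell by 0.41 ± 0.10 (adjusted p = 0.00746). None of these 3 passed in the second array set alone, where Klf5 differed by 0.20, Klf7 by 0.23 and Klf3 by -0.31. Klf1, the erythroid factor, rose by 0.89 ± 0.27 (0.0231) and Klf13 fell by 0.38 ± 0.11 (0.0161). Both calls were lost on leaving out RA48 replicate 1, 2 or 3, with adjusted p from 0.0613 to 0.0871 for Klf1 and from 0.0544 to 0.0619 for Klf13. Within the first array set 5 of the family rose at this step.

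Between Puromycin and RA96 2 of the 14 rose and 12 did not pass, beside 3.17% of rows higher and 2.10% lower. The family median was 0.10 against -0.01. Both were factors that had fallen before, Klf9 (0.41 ± 0.10, limma adjusted p = 0.0196) and Klf16 (0.50 ± 0.14, adjusted p = 0.0313). Their calls did not outlast the loss of single arrays: Klf9 missed the threshold without RA96 replicate 4 or Puromycin replicate 1, 2 or 3 (adjusted p of 0.0516 to 0.0599), and Klf16 without RA96 replicate 4, 5 or 6 or Puromycin replicate 1, 2 or 3 (0.0741 to 0.0902). Klf5 differed by 0.09 ± 0.12 (adjusted p = 0.815) and Klf3 by 0.13 ± 0.10 (0.565) at this step. Whether their changes differ from those of Klf2 and Klf4 was not tested.

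Between RA96 and Control 4 of the 14 rose and 3 fell, beside 20.1% of all rows higher and 26.1% lower, with Klf17 (-0.69 ± 0.22, limma adjusted p = 0.014, and -0.73 with 0.113 in the first array set alone) among those that fell. Over the whole course, Puromycin against Control, 6 of the 14 rose and 2 fell, beside 19.8% of rows higher and 26.4% lower, and their median was 0.20 against -0.09 for all rows. Klf3 ended 1.49 ± 0.10 higher (limma adjusted p = 2.71e-11), Klf5 1.36 ± 0.12 (6.52e-09), Klf7 0.85 ± 0.08 (6.24e-09) and Klf6 0.67 ± 0.17 (0.00335). Klf6 differed by only 0.16 (adjusted p = 0.144) in the second array set. Klf10, a target of TGF-beta, rose by 0.31 ± 0.09 (0.00814, and 0.24 with 0.0631 in the second array set alone), and Sp6 by 0.69 ± 0.26 (0.033), a call lost on leaving out any of 5 arrays, Control replicate 1 or 2 or Puromycin replicate 3, 5 or 6 (adjusted p from 0.057 to 0.0804). Klf9 fell by 0.82 ± 0.10 (9.18e-07) and Klf8 fell by 0.52 ± 0.14 (0.00493). With the replicate number or the array set as a block 4 of the family fell rather than 2, Klf16 and Klf17 being added. Sp3, the close relative of Sp1 that binds the same boxes, passed the test in none of the 5 comparisons by limma, and its difference between Puromycin and Control was 0.10 ± 0.07 (adjusted p = 0.28), although in the first array set alone it passed there with 0.25.

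**Figure D5:**
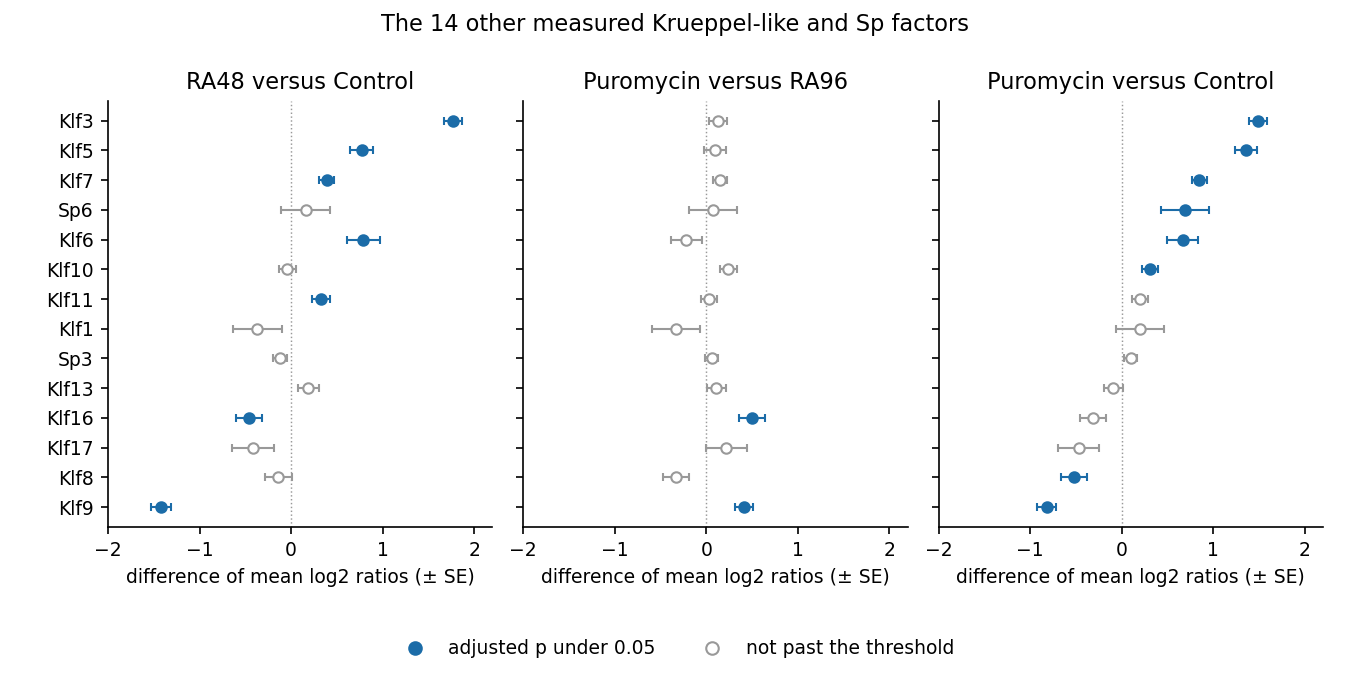
Difference of mean log2 ratios (horizontal axis, bars ± SE) of the 14 other measured Krueppel-like and Sp factors in 3 comparisons, ordered by the change from Control to Puromycin, with filled blue points for a limma adjusted p under 0.05. Filled points lie on both sides of 0 between RA48 and Control, from -1.42 for Klf9 to 1.77 for Klf3, and between Puromycin and RA96 only Klf9 and Klf16 are filled.

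Of the other genes of the pluripotency network, more fell than rose at each step, and many did not pass the test. Of 28 listed 20 were measured, and between RA48 and Control 10 fell, 1 rose and 9 did not pass, beside 14.1% of all rows lower and 11.9% higher, with a median change of -0.48. Utf1, a chromatin factor of undifferentiated cells, fell by 3.49 ± 0.13 (limma adjusted p = 8.91e-15), and Dnmt3b, a de novo DNA methyltransferase, fell by 3.31 ± 0.14 (1.31e-13). Lefty1, an inhibitor of Nodal, was the gene that rose (2.03 ± 0.19, adjusted p = 2.5e-08). Lefty1 then fell by 3.65 ± 0.19 from RA48 to RA96 (4.33e-11), and in Puromycin it was 2.33 ± 0.18 lower than in Control (4.93e-10). Between RA96 and RA48 7 fell and 1 rose, beside 9.42% and 10.4% of rows. Between Puromycin and RA96 4 of the 20 fell and 16 did not pass, beside 2.10% of rows lower, Dnmt3b being among the 4 (-0.54 ± 0.14, adjusted p = 0.0223, lost without RA96 replicate 4 or 6). Over the whole course 11 fell, 1 rose and 8 did not pass, beside 26.4% lower and 19.8% higher, with a median of -1.36. Sox2, a core factor of the network, fell by 5.70 ± 0.49 (adjusted p = 2.53e-09), Dnmt3b fell by 5.04 ± 0.14 (1.11e-17), and Myc, as the 1 gene that rose, was 0.77 ± 0.15 higher (0.000226).

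In the LIF and Stat3 pathway, which is known to maintain Klf4 in stem cells, 13 of 18 listed genes were measured. Receptor and kinase genes moved in different directions between RA48 and Control, where 4 rose and 2 fell, beside 11.9% and 14.1% of all rows. Jak2 and Jak1, the kinases of the receptor, rose by 1.25 ± 0.09 (limma adjusted p = 9.78e-10) and 1.14 ± 0.13 (4.84e-07), and Lifr, the receptor of LIF, fell by 0.94 ± 0.09 (1.78e-08). Between RA96 and RA48 5 of the 13 rose, beside 10.4% of rows, with Osmr, the oncostatin M receptor, first (1.74 ± 0.33, adjusted p = 0.000794). Jak1 was the 1 gene of 13 that rose between Puromycin and RA96 (0.47 ± 0.12, adjusted p = 0.0271), where 3.17% of rows did. In the first array set it differed by only 0.11, and its call was lost without any of 7 single arrays (RA96 replicate 2, 4, 5 or 6 or Puromycin replicate 4, 5 or 6). From Control to Puromycin 6 rose and 2 fell, beside 19.8% of rows higher and 26.4% lower. The largest of these rises were those of Osmr (2.81 ± 0.31, limma adjusted p = 1.39e-07) and Jak1 (2.18 ± 0.12, 2.74e-12). Within the second array set 10 of the 13 rose, with a median change of 0.74, while the median in the first set was 0.05. Lifr, the LIF receptor gene, fell by 0.76 ± 0.08 over the course (1e-07).

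Smooth muscle contractile genes, which Klf4 is known to repress in vessels, were mostly higher in RA48 and RA96 than in Control. At the puromycin step most did not pass the test. Of 22 listed 20 were measured, and between RA48 and Control 15 of these rose and 5 did not pass, beside 11.9% of all rows higher, with a median of 1.13. Acta2 rose by 4.56 ± 0.22 (limma adjusted p = 4.24e-13) and Csrp1, a LIM protein, by 2.42 ± 0.30 (1.68e-06). From RA48 to RA96 8 rose and 12 did not pass, beside 10.4% of rows higher, with Acta2 higher by 2.21 ± 0.22 (3.42e-07) and Myl9, the regulatory myosin light chain, by 2.04 ± 0.23 (1.89e-06). Between Puromycin and RA96, where Klf4 was 2.22-fold higher, 1 of the 20 rose, 1 fell and 18 did not pass, near the 3.17% of rows higher and 2.10% lower, and the median was 0.04. The riser was Cald1, the caldesmon gene (0.59 ± 0.12, adjusted p = 0.00427, and 0.54 with 0.0787 in the first array set alone). Acta2 differed at this step by 0.52 ± 0.21 (0.163) in the fit without a block. With the array set as a block 5 rose, Acta2 among them (0.59, limma adjusted p = 0.0302). Mylk (-1.33, 8.04e-05) and Pdlim7 (-0.26, 0.0078) fell with that block. Over the whole course 17 rose and 3 did not pass, beside 19.8% of rows higher, with Acta2 7.30 ± 0.21 (adjusted p = 1.51e-17) and Myl9 4.56 ± 0.22 (1.43e-13) higher.

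The list of serum response factor, myocardin and their partners had 25 of 34 genes measured. Between RA48 and Control 8 rose, beside 11.9% of all rows, led by Gata6 (2.04 ± 0.18, limma adjusted p = 9.87e-09) and Elk3, a repressing partner of serum response factor (1.10 ± 0.13, 6.12e-07), and 5 did so in the second array set. Elk3 was also the 1 gene of 25 that rose between Puromycin and RA96 (0.55 ± 0.12, adjusted p = 0.00781), a count near the 3.17% of all rows. It was thus higher at every step (0.54 ± 0.13, limma adjusted p = 0.00469, between RA96 and RA48). From Control to Puromycin 9 rose and 1 fell, beside 19.8% of rows higher and 26.4% lower. Gata6 was 2.44 ± 0.17 higher (adjusted p = 8.58e-11), Elk3 was 2.19 ± 0.12 higher (1.62e-12), and Hdac5, a histone deacetylase that binds Mef2 factors, fell by 0.95 ± 0.19 (limma adjusted p = 0.000296). In the first array set 4 fell.

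Upstream of Klf2 lies a cascade from Map3k2 and Map3k3 through Erk5 to Mef2 factors, which the complex of the cerebral cavernous malformation genes restrains. Of 14 listed genes 7 were measured. Between RA48 and Control 2 rose and 1 fell, beside 11.9% and 14.1% of all rows. The risers were Heg1, a receptor of that complex (0.63 ± 0.11, limma adjusted p = 0.000172) and Map3k3 (0.51 ± 0.12, 0.0024), while Foxo1, a transcription factor that acts on Klf2 in T cells, fell by 0.94 ± 0.09 (2.95e-08). Over the course 4 rose and 1 fell, beside 19.8% of rows higher and 26.4% lower, with Ccm2 0.98 ± 0.24 (adjusted p = 0.00178) and Map3k3 0.49 ± 0.11 (0.00143) higher, and Foxo1 fell by 0.94 ± 0.08 (4.97e-09). With the array set as a block 4 rose between RA48 and Control. Mef2c, a Mef2 factor named here after its values were seen, differed by 0.20 ± 0.20 between Puromycin and Control (adjusted p = 0.457).

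Endothelial genes known to respond to Klf2 and Klf4 were measured for 14 of 22. Over the whole course 9 rose and 3 fell, beside 19.8% of all rows higher and 26.4% lower, with a median of 0.76. Cav1, the caveolin of vessel cells, rose by 3.89 ± 0.24 (limma adjusted p = 1.16e-11) and Ccl2, a chemokine that Klf2 is known to restrain, by 2.66 ± 0.24 (5.35e-09). Nos3, the endothelial nitric oxide synthase and a well known gene induced by Klf2, fell by 0.66 ± 0.12 (adjusted p = 0.000138). Between RA48 and Control 4 rose and 1 fell, beside 11.9% and 14.1% of rows, Kdr first (1.24 ± 0.11, adjusted p = 6.53e-09). Between Puromycin and RA96 3 rose, beside 3.17% of rows: Cav1, by 1.32 ± 0.24 (0.00149, named after its values were seen), Ccl2 by 2.01 ± 0.24 (2.03e-05) and Vcam1, an adhesion gene that Klf2 is known to restrain, by 1.59 ± 0.22 (0.000102). Whether Klf2 had a part in these changes was not tested. Endothelial markers as a list (5 of 9 measured) had array means from -1.99 to -1.26 in Control and from -1.22 to -0.99 in RA48. They ran from -1.02 to -0.73 in RA96 and from -1.33 to -0.91 in Puromycin, below the embryo pool on every array. Of these 5 markers 4 rose and 1 fell between RA96 and Control, beside 20.1% of rows higher and 26.1% lower. Between Puromycin and Control 3 rose and 1 fell. Their part in the result was not tested.

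Cell cycle genes under Klf4 were measured for 10 of 16, and 1 of them rose at every step. This was Cdkn1a, the inhibitor p21 that Klf4 is known to activate. It rose by 1.35 ± 0.16 between RA48 and Control (limma adjusted p = 6.24e-07), by 0.86 ± 0.16 from RA48 to RA96 (0.000614, and 0.38 with 0.21 in the second array set alone) and by 0.96 ± 0.15 from RA96 to Puromycin (0.00035). Over the course it was 3.16 ± 0.15 higher (1.09e-13) and the only riser of the 10, while 3 fell, beside 19.8% of all rows higher and 26.4% lower. Ccne1, the cyclin E1 gene, fell by 1.03 ± 0.12 (adjusted p = 4.88e-07) and Birc5, the survivin gene, fell by 0.80 ± 0.19 (0.00153). Within the second array set 4 rose. At the first step 2 rose and 2 fell, beside 11.9% and 14.1% of rows, with Ccnd2, the cyclin D2 gene, 1.01 ± 0.15 higher (adjusted p = 1.94e-05), and 5 rose in the first array set. At the puromycin step 2 rose and 1 fell, beside 3.17% and 2.10% of rows: Odc1, an enzyme of polyamine synthesis, rose by 0.54 ± 0.12 (0.00994, and 0.40 with 0.0861 in the second array set alone) and Wee1, a kinase that delays mitosis, fell by 0.59 ± 0.11 (0.00148).

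Of the epithelial genes that Klf4 is known for in skin and gut 12 of 16 were measured. Between RA48 and Control 8 of the 12 rose and 1 fell, beside 11.9% and 14.1% of all rows. The simple keratin genes Krt8 and Krt18 were 5.05 ± 0.15 (limma adjusted p = 2.86e-16) and 2.75 ± 0.33 (1.02e-06) higher. Epcam, an adhesion gene of undifferentiated and epithelial cells, fell by 2.00 ± 0.26 (adjusted p = 3.39e-06). At the puromycin step 4 of the 12 fell, beside 2.10% of rows, and the median was -0.36. Krt19 fell by 1.07 ± 0.15 (0.000119) and Cdh1, the E-cadherin gene, fell by 0.94 ± 0.14 (0.000181). Over the course 6 rose and 3 fell, beside 19.8% and 26.4% of rows, the count lower being near that of all rows, Krt8 being 5.03 ± 0.14 higher (1.73e-17), while Epcam fell by 2.60 ± 0.25 (1.56e-08).

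Of the cofactors of Sp1 more fell than rose, as also holds for all rows between RA48 and Control and over the course. Of 20 listed 15 were measured, and 3 fell and none rose between RA48 and Control, beside 14.1% of all rows lower and 11.9% higher, with a median of -0.04. Nfyb, a subunit of the CCAAT-box factor that pairs with Sp1, fell by 1.06 ± 0.12 (limma adjusted p = 4.02e-07) and Taf7, a subunit of TFIID, fell by 0.71 ± 0.09 (9.34e-07). With the array set as a block 6 fell and 3 rose. Over the course 7 fell and 2 rose, beside 26.4% of rows lower and 19.8% higher, with a median of -0.23 against -0.09 for all rows. Nfyb fell by 1.36 ± 0.11 (adjusted p = 1.54e-09), Hdac1, a histone deacetylase that Sp1 recruits, fell by 1.18 ± 0.18 (1.43e-05), and Mdm2 was 0.70 ± 0.14 higher (0.000217). At the puromycin step 1 fell, beside 2.10% of rows, Ogt, the enzyme that adds GlcNAc to Sp1 (-0.46 ± 0.12, adjusted p = 0.031), a call lost without any of 6 arrays, RA96 replicate 4, 5 or 6 or Puromycin replicate 1, 2 or 3 (adjusted p up to 0.0892).

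Genes with GC boxes that Sp1 is known to activate moved in both directions. Of 22 listed 16 were measured, and between RA48 and Control 6 rose and 3 fell, beside 11.9% of all rows higher and 14.1% lower. Ccng2, a cyclin of arrested cells, rose by 1.12 ± 0.12 (limma adjusted p = 1.82e-07), Hprt, a purine salvage enzyme, fell by 1.36 ± 0.15 (2.3e-07) and Mt1, a metallothionein, fell by 1.44 ± 0.33 (0.00184). Over the course 5 rose and 2 fell, beside 19.8% and 26.4% of rows, with a median of 0.20 against -0.09 for all rows. Tgfbr2, a TGF-beta receptor, rose by 1.36 ± 0.19 (adjusted p = 3.51e-06), Col1a1, a collagen of interstitial matrix, by 1.41 ± 0.28 (0.000297, and 1.08 with 0.0528 in the first array set alone), and Tyms, thymidylate synthase, fell by 0.61 ± 0.08 (3.93e-06). With either block 4 fell, and 5 fell in the second array set. Hprt rose again by 0.57 ± 0.14 (0.0173) at the puromycin step, 1 of 2 risers there beside 3.17% of rows, and that call was lost without RA96 replicate 5 (0.0563).

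Immediate early genes, the class of rapidly induced genes to which Klf2 and Klf4 also belong, were measured for 13 of 21. Of these 10 rose between RA48 and Control, beside 11.9% of all rows, with a median of 0.89. From Control to Puromycin 12 rose, beside 19.8% of rows, with a median of 1.39. Ccn2, a matrix-associated signal protein, was 3.01 ± 0.17 higher at the first step (limma adjusted p = 1.16e-11) and 5.03 ± 0.17 higher over the course (2.35e-16). Ier3, a stress-induced gene, was 2.92 ± 0.19 higher over the course (3.23e-11) and, like Klf4, higher at the puromycin step (1.24 ± 0.19, adjusted p = 0.00035, and 0.65 with 0.0551 in the first array set alone). At that step 2 of the 13 rose and 1 fell, beside 3.17% and 2.10% of rows, Fosl1, an AP-1 subunit, being 1.42 ± 0.31 higher (0.00809, and 0.73 with 0.06 in the second set alone), while Atf3, a stress-induced factor, fell by 0.55 ± 0.13 (0.00936). The list median at the puromycin step was -0.05.

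Markers of cell types were read beside these changes. Markers of undifferentiated cells (5 of 8 measured) had array means from 2.27 to 2.84 in Control, from 0.49 to 0.94 in RA48, from 0.00 to 0.30 in RA96 and from -0.31 to 0.08 in Puromycin, so they ran against Klf2 and Klf4 and in the direction of Sp1. Of those 5, Zfp42 alone (named after its values were seen) showed no such course, with group means of 1.19, 1.32, 1.16 and 1.10 (adjusted p = 0.864 over the 4 groups by limma's F test). Smooth muscle markers (5 of 6) had medians of -1.93, -0.76, 0.55 and 0.04 in Control, RA48, RA96 and Puromycin. None of the 5 passed the test by limma between Puromycin and RA96 in the fit without a block. Of single markers Mylk had group means of 0.55 in RA96 and -1.20 in Puromycin, while Acta2 went from 1.87 to 2.40 without overlap and Smtn from -0.57 to -0.41 (genes named after their values were seen). Within the first and second array set the median change of these markers at that step was 0.07 and 0.16. Myh11, the smooth muscle myosin that defines the mature cell and was also named after its values were seen, had group means of -1.14, -1.08, -0.77 and -0.95 and did not pass the F test (adjusted p = 0.937). Extraembryonic endoderm markers (4 of 7) had medians of -1.30, -0.68, -0.49 and -0.43, in the same order of groups as Klf2 and Klf4. Of the 4, Sox17 and Dab2 had group means in that order, and Gata4 (-0.64, -0.91, -0.47 and -0.73) and Foxa2 (-1.30, -0.44, -1.16 and -1.22) did not. Fibroblast markers (3 of 6) had medians of -2.44, -2.06, -1.05 and -1.24. Medians of neuronal markers (6 of 8) lay between -1.13 and -0.48, of blood cell markers (2 of 8) between -1.60 and -1.08 and of stratified epithelium markers (2 of 6) between -0.98 and -0.63, without the order of Klf2 and Klf4. A ratio to an embryo pool has no 0 level, so the absence of a cell type cannot be read from it, and the part of these cell types in the result was not tested.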

How the data were processed

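The authors deposited 1 table with a value per probe and array for the 23 arrays, read here as the log10 ratio of cells (Cy5) over embryo pool (Cy3), and the base, any centring and the direction are not stated in the sources used here. Base 10 was inferred from how far the values reach, and the direction was inferred from the dyes that the labels give. Array medians lay between -0.0709 and 0.0264 after conversion to log2 ratios (division by log10 of 2), as computed from the deposited values. Per the labels, scanning used an Agilent G2565AA, Feature Extraction A.6.1.1 quantified the images, and dyes were not swapped. With no intensities used here, detection limits are unknown, and the number of arrays limits the precision.

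Of 21446 rows 1166 with at most 6 significant digits on every array and no gene were left out as probable control spots. Of the other 20280 probes 11100 had 1 symbol in the platform annotation, 442 several and 8738 none. Probes of 1 symbol were averaged per gene (8683 genes, 1926 of them with several probes) and the others kept as probes, which gave 17863 rows with no missing value. The reference gene table lacked the identifiers of 37 probes and changed no symbol. No arrays held identical values.

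All 23 arrays entered 1 limma fit of 4 group means (lmFit, eBayes; limma 3.58.1, R 4.3.3) without a block, with Benjamini-Hochberg adjustment over all rows and a threshold of 0.05. The fit was also run on simulated data with independent noise. Those data lacked the array sets, so they cannot show how the sets affect the calls. Tables were handled with pandas 2.3.3 in Python 3.11.15. Standard errors of the members come from this fit. The members and all gene lists were chosen with earlier results of these data known. Genes named are the members, Acta2, every measured relative, the 2 largest rises and falls per list and comparison among those past the threshold, and the genes most and least correlated with each member, other exceptions being marked. Alternatives were quantile normalization, median centring, control-like rows kept, single probes, the compared groups alone, a block of replicate number or of array set, either set by itself and each array left out. A block of replicates 1 to 3 against 4 to 6 was added after the data were seen.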

Additional observations from a re-analysis of the deposited data

Results flagged for a closer look

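Among 80 sets of a gene and a group (members, relatives and probes), 2 held a sample far from the others by Dixon's criterion, which chance meets in about 1 of 20 sets. Klf7 in Puromycin replicate 5 was 0.13, the lowest of 6, with the others between 0.23 and 0.26. Klf17 in Puromycin replicate 2 was 0.82, the highest of 6, with the others between -0.65 and -0.59. The difference of Klf17 between Puromycin and Control was -0.71 without that array (limma adjusted p = 0.00126) and -0.47 with it (0.0865).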

How the results depend on the processing

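Klf2 and Klf4 kept their direction in all 5 comparisons under every alternative run, and Sp1 in 4. The difference of Sp1 between Puromycin and RA96 (-0.03) turned to 0.00 with a block of array set, 0.04 and 0.02 in the first and second set alone, 0.03 without RA96 replicate 4, 0.02 without RA96 replicate 6, and 0.02 and 0.01 without Puromycin replicate 1 and 2. Leaving out 1 array gave it -0.08 to 0.03. Values moved by more than 1 SD as follows. Klf2 became 0.41 between RA48 and Control in the second set, 1.48 between RA96 and Control in the first, and 2.49 and 1.62 between Puromycin and Control in the first and second. Klf4 became 0.45 between RA48 and Control after quantile normalization, 1.38 between RA96 and RA48 in the first set, 2.40 and 1.23 between RA96 and Control, and 3.43 and 2.31 between Puromycin and Control. Sp1 became -0.47 between RA96 and RA48 and -0.90 between RA96 and Control in the first set, and -0.86 and -0.56 between Puromycin and Control. The replicate number did not pair the arrays (same-number correlations from -0.455 to 0.675 over 33 pairs, 30 of them over 0.1, and only 4 of 23 arrays correlated best with their own number). With the replicate block the rows called between Puromycin and RA96 rose from 942 to 1784, and Klf2 there stayed at 1.02 and Klf4 at 1.15. The set block gave 7029 rows between RA48 and Control, 5726 between RA96 and RA48 and 2281 between Puromycin and RA96, and the block of replicates 1 to 3 against 4 to 6 gave 5429 and 2272 for the last pair. The first set alone gave 6697 between RA96 and RA48 and 1691 between Puromycin and RA96, and the second 2267 and 1638. Leaving out 1 array gave 2227 to 4198 rows between RA96 and RA48, the lowest being 2239, 2305 and 2227 without RA48 replicate 1, 2 and 3, and 641 to 1083 between Puromycin and RA96. The cause of these moves was not tested. Each of Klf2 and Klf4 rests on 1 probe, the dyes were not swapped, and signal over background is unknown.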
